A study of Mus musculus with 24 samples.

Results

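Block of the mitochondrial ATP synthase was compared with inhibition of eIF2α dephosphorylation in macrophages stimulated with IL-4 and IL-13, since both engage the integrated stress response (ISR). The comparison rests on 8 of the 24 RNA sequencing (RNA-seq) libraries of the series, namely the 4 whose names end in Oligo and the 4 whose names end in Sal003, chosen by name alone. They come from 4 mice, numbered 1, 2, 4 and 5, each of which gave 1 library per group. The cells were wild-type bone marrow–derived macrophages (BMDM) of 9-week-old female C57BL/6J mice, collected on day 6 of culture with macrophage colony-stimulating factor.

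All 8 cultures were stimulated for 24 hours with both cytokines, each at 20 ng/ml, after 1 hour of pretreatment with the inhibitor. The Sal003 libraries had Sal003 at 10 µM, and the Oligo libraries had oligomycin at 1 µM. The labels disagree on ISRIB in the Oligo libraries. Their titles and treatment labels add ISRIB at 1 µM to oligomycin, whereas their library names and replicate labels give oligomycin without ISRIB. The 4 Oli_ISR libraries carry the opposite conflict, their titles giving oligomycin alone and their library names adding ISRIB. The conflict was left as it stands, no measured value was used to settle it, and every difference between Oligo and Sal003 below may be one between oligomycin with ISRIB and Sal003. Values of Oli_ISR against Sal003, of macrophages given the cytokines alone (M2) and of unstimulated macrophages (M0) are given beside the results. M2 and M0 had no inhibitor and no pretreatment. The Tunica libraries had both cytokines and tunicamycin at 5 µg/ml, with 1 hour of pretreatment. They serve below to list the genes that tunicamycin raised or lowered over M2. Oligomycin and Sal003 were each used at 1 dose and 1 time point, so that the strength of the 2 treatments on their targets cannot be told apart from their kind.

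The ISR is a common endpoint of several stresses. Kinases that sense each stress phosphorylate the initiation factor eIF2α, which lowers general translation and favors translation of factors such as ATF4 and CHOP, and these induce genes of amino acid supply, tRNA charging and feedback. Oligomycin binds the mitochondrial ATP synthase, and mitochondrial stress reaches the pathway through OMA1, DELE1 and the kinase HRI (*Eif2ak1*). Sal003, a relative of salubrinal, acts at the opposite step and keeps phosphate on eIF2α by blocking its removal by phosphatase complexes, whose regulatory subunits are GADD34 (*Ppp1r15a*) and CReP (*Ppp1r15b*). ISRIB acts on the exchange factor eIF2B and makes it less sensitive to phosphorylated eIF2α. IL-4 and IL-13 signal through STAT6 and, with IRF4 and other factors, induce markers such as *Arg1*, *Retnla*, *Chil3*, *Egr2* and *Ccl22*.

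Between 18640294 and 20368244 reads were counted on genes in the Oligo libraries and between 18674060 and 20547790 in the Sal003 libraries. Values are in CPM, the reads of a gene scaled to a common library size after normalization, and the 4 values of a group are given in the order of mice 1, 2, 4 and 5. Of 13679 genes tested, 3439 (25.1%) were higher and 3606 (26.4%) were lower in Oligo than in Sal003 at an adjusted *P* under 0.05 by the quasi-likelihood test of edgeR, which is what “passed the test” means below. With a change of at least 2.5-fold as well, 311 (2.27%) were higher and 280 (2.05%) were lower. These counts were 124 and 105 when at least 10 counts were required in every library, which leaves out genes that are low in any group. The groups did not overlap in CPM in either direction for a similar share of genes, with Oligo above Sal003 for 3531 genes (25.8%) and below it for 3655 (26.7%). In Oli_ISR against Sal003, 1333 genes (9.74%) were higher and 1199 (8.77%) lower, and 43 (0.314%) and 25 (0.183%) of them by at least 2.5-fold, which became 13 and 5 with at least 10 counts in every library. These 1333 and 1199 genes became 709 and 604 without mouse 1, 884 and 701 without mouse 4, and 880 and 780 without mouse 5. By at least 2.5-fold, 655 genes (4.79%) were higher and 1089 (7.96%) lower in Oligo than in M2, against 366 (2.68%) and 689 (5.04%) in Sal003.

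The genes called at 2.5-fold lay farther from M2 in the Oligo libraries than in the Sal003 libraries. Over the 311 genes higher in Oligo, the median log2 difference from M2 was 2.03 in Oligo and 0.20 in Sal003. Over the 280 lower genes it was −2.42 in Oligo and −0.63 in Sal003. These differences share the M2 libraries and the genes were selected on Oligo against Sal003, so they are given side by side as a description. The same genes in Oli_ISR differed from Sal003 by a median of 0.63 and −0.41. The plot of all genes shows how the rises and falls were spread over expression levels.

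**Figure D1:**
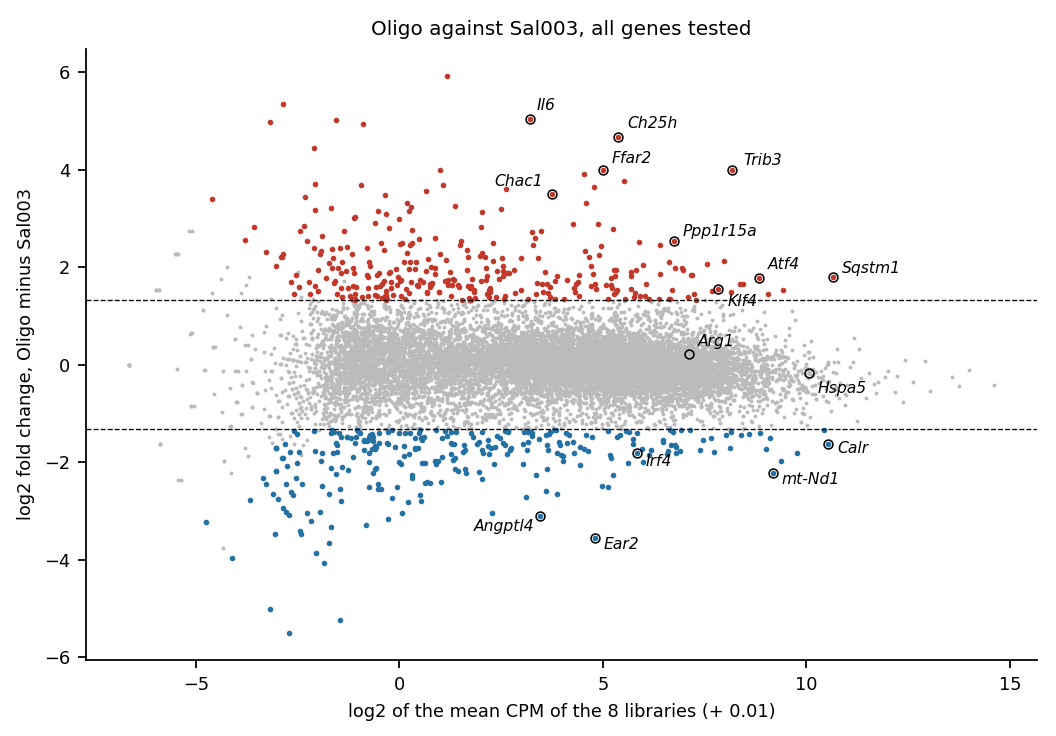
Log2 fold change of Oligo against Sal003 (vertical axis) for each of the 13679 genes tested, against the log2 mean CPM of the 8 libraries (horizontal axis). Red points are the 311 genes higher and blue points the 280 genes lower in Oligo at an adjusted *P* under 0.05 and at least 2.5-fold (dashed lines), and gray points are the other genes. *Il6*, *Ch25h* and *Trib3* lie near the top, *Ear2* and *Angptl4* near the bottom, and *Arg1* and *Hspa5* close to 0.

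Transcripts of the ISR factors and of their known targets were higher in Oligo than in Sal003. *Atf4* (ENSMUSG00000042406, GRCm39 chr15:80139372-80141745), the transcription factor that carries the response, had 706, 706, 699 and 706 CPM in Oligo. In Sal003 it had 214, 193, 173 and 245 CPM. The Oligo libraries hardly varied and lay far above every Sal003 library, of which mouse 4 was lowest and mouse 5 highest. The log2 difference was 1.77 ± 0.07 (SE, adjusted *P* = 8.6e-16), against 1.21 for Oli_ISR, and the mean in M2 was 136 CPM. Its partner CHOP (*Ddit3*) rose with it, at 216, 220, 240 and 227 CPM in Oligo and 62.5, 63.2, 47 and 80.9 CPM in Sal003 (log2 difference 1.83 ± 0.10, adjusted *P* = 2.6e-13). Its exons are overlapped by genes of the opposite strand over 82.4% of their length, and reads of the 2 strands cannot be told apart where counting ignored strand, which the sources used here do not say.

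Of 18 factors listed as stress-linked bZIP factors, all tested, 15 rose, *Batf3* fell, and 2 did not pass the test. The list includes *Nupr1*, which is not a bZIP protein and had the largest rise in it. The median log2 difference over the list was 0.70, against 0.00 over all genes tested. *Nupr1*, a small chromatin-associated stress factor, was at 61.1 ± 1.61 CPM (mean ± SD, *n* = 4) in Oligo and 15.9 ± 3.35 CPM in Sal003. *Atf5*, another factor translated during the ISR, had means of 386 and 226 CPM, a log2 difference of 0.78 ± 0.06. *Atf3* differed little, with 720 ± 13.5 CPM in Oligo and 646 ± 23.5 CPM in Sal003 (log2 difference 0.16 ± 0.05, adjusted *P* = 0.0067), and both groups lay below the 866 CPM of M2. Without mouse 5 *Atf3* no longer passed (adjusted *P* = 0.052). *Batf3*, which partners with IRF factors, was at 17.6 CPM in Oligo and 36.8 CPM in Sal003, below 94.3 CPM in M2.

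The downstream effectors differed most. *Trib3* (ENSMUSG00000032715, chr2:152179337-152191958), a pseudokinase that restrains ATF4 signaling, had 546, 531, 561 and 529 CPM in Oligo. It had 38.1, 31.4, 27.2 and 38.5 CPM in Sal003. Every Oligo library stood more than 10-fold above every Sal003 library (log2 difference 4.00 ± 0.08, adjusted *P* = 3.5e-21), and Sal003 in turn stood above the 3.55 CPM of M2, by 3.24 on the log2 scale. *Chac1*, which degrades glutathione, had 25.6, 23.4, 24.5 and 24.8 CPM in Oligo and 2.49, 2.26, 1.36 and 2.57 CPM in Sal003. The groups lay apart in each mouse, with a log2 difference of 3.49 ± 0.11 (adjusted *P* = 7.7e-18), and Oli_ISR was 3.07 above Sal003 on the same scale. Of 22 ISR effectors tested of 24 listed, 16 rose, 12 of them by at least 2.5-fold, and 3 fell (*Trib1*, *Gadd45b* and *Rcan1*). Their median log2 difference was 1.90 in Oligo against Sal003 and 0.80 in Oli_ISR against Sal003. Against M2 it was 2.13 in Oligo and 0.28 in Sal003.

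*Il6*, an inflammatory cytokine listed with the effectors, had the largest difference of the effectors. It had 18.3, 16.5, 20.4 and 16.8 CPM in Oligo, whereas no Sal003 library exceeded 0.721 CPM (log2 difference 5.04 ± 0.18, adjusted *P* = 3.5e-17). In Oli_ISR its mean was 0.809 CPM, and the log2 difference of 0.56 from Sal003 did not pass the test (adjusted *P* = 0.24). *Slc25a33*, a mitochondrial pyrimidine nucleotide carrier, had 13, 11.9, 14.3 and 12.7 CPM in Oligo and 3.32, 2.76, 2.6 and 2.73 CPM in Sal003, and the groups did not overlap (log2 difference 2.18 ± 0.12). *Vegfa*, a growth factor, was at 200 CPM in Oligo and 51.7 CPM in Sal003. The plot of stress response genes shows these values in every library.

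**Figure D2:**
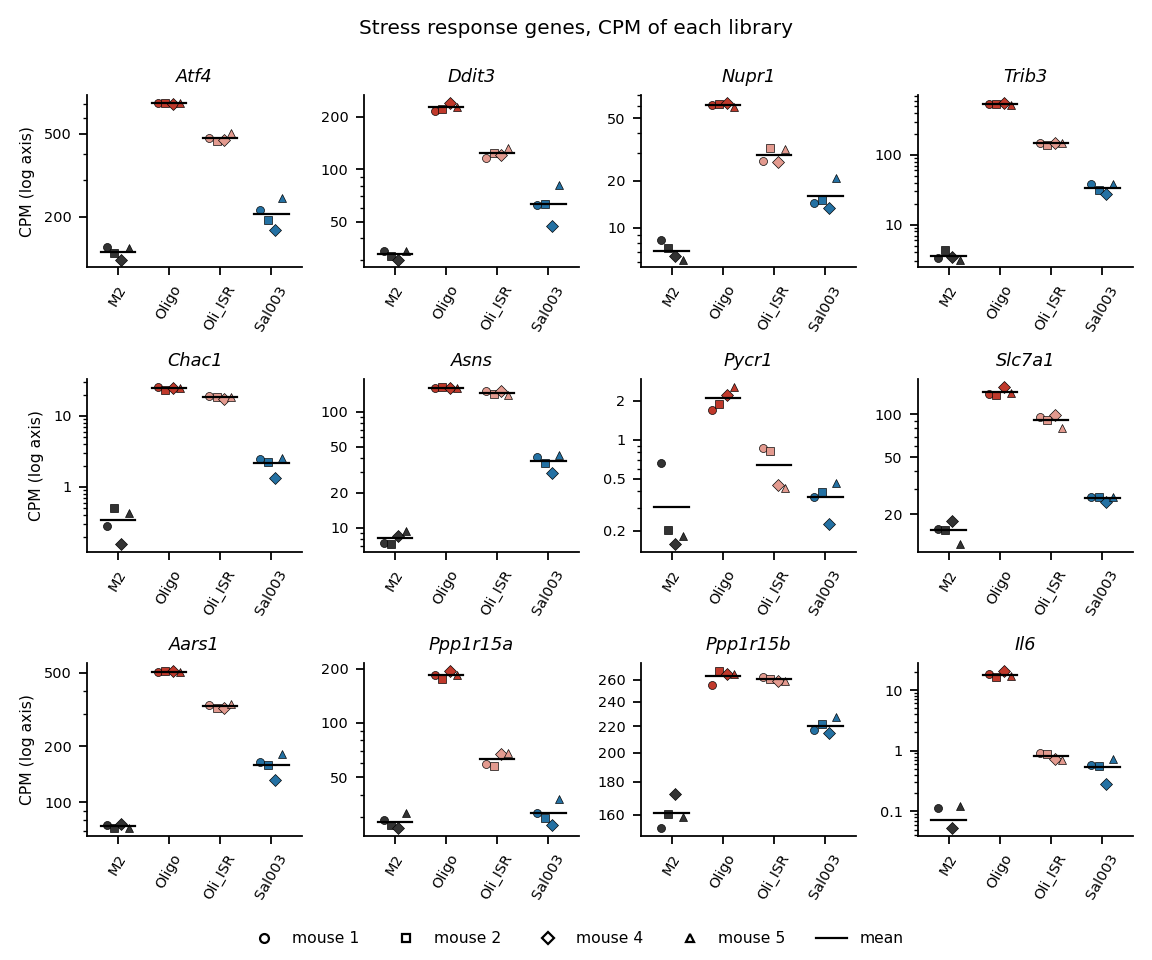
CPM (log axis) of 12 genes of the stress response in each library of 4 groups, with marker shape giving the mouse and the horizontal line the mean. Oligo lies above Sal003 in all 12 panels, by little for *Ppp1r15b* and by more than an order of magnitude for *Trib3* and *Il6*, and 1 M2 library with no *Il6* read is not drawn.

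Amino acid supply and tRNA charging followed the same direction. *Asns*, which makes asparagine, had 159, 163, 161 and 161 CPM in Oligo and 41.1, 36.4, 29.8 and 42.7 CPM in Sal003. All Oligo libraries were above all Sal003 libraries (log2 difference 2.10 ± 0.09, adjusted *P* = 5e-16), and Sal003 itself was 2.21 above M2 on the log2 scale. *Shmt2*, a mitochondrial enzyme of serine catabolism, had 86.6, 86, 86.7 and 86.1 CPM in Oligo and 41.6, 43.4, 40.5 and 43 CPM in Sal003, which was the level of M2 (43.1 CPM). Its log2 difference was 1.04 ± 0.05 between Oligo and Sal003 and −0.03 between Sal003 and M2 (adjusted *P* = 0.65). Of 20 genes of amino acid synthesis tested of 21 listed, 15 rose, 7 of them by at least 2.5-fold, and *Glul* and *Mthfd1* fell. *Glul*, which makes glutamine, was at 144 CPM in Oligo and 278 CPM in Sal003. *Mthfd1* passed in neither the upper-quartile fit nor the fit without a filter on low counts (adjusted *P* = 0.1 and 0.13), nor without any 1 mouse.

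Among 19 amino acid transporters tested of 20 listed, 10 rose and 5 fell. *Slc7a1*, a carrier of arginine and other cationic amino acids, had 140, 138, 155 and 141 CPM in Oligo and 26.3, 26.6, 24.5 and 26.7 CPM in Sal003. Mouse 4 was highest in Oligo and lowest in Sal003, and the groups lay apart (log2 difference 2.46 ± 0.08, adjusted *P* = 6.5e-18). The glycine transporter *Slc6a9* (log2 difference 2.74 ± 0.13) and the neutral amino acid transporter *Slc1a4* (2.46 ± 0.10) also rose. *Slc43a2*, *Slc36a1* and *Slc7a2* were the members that fell most, by 0.84, 0.70 and 0.53 on the log2 scale. Of 20 cytosolic tRNA synthetases, 17 rose and only *Qars1* fell. *Aars1*, the alanyl-tRNA synthetase, had 505, 508, 507 and 501 CPM in Oligo against 164, 160, 132 and 182 CPM in Sal003 (log2 difference 1.66 ± 0.06, adjusted *P* = 9.4e-17). Of the 17 mitochondrial tRNA synthetases, 6 (35.3%) rose and 2 (11.8%) fell, with a median log2 difference of 0.05. Over all genes tested the shares were 25.1% and 26.4%.

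ATF4 binds with C/EBP partners to a composite DNA element, called CARE. Its core, written here as TGATGNAA, was searched on both strands from 250 bases before to 50 bases after the start of the canonical transcript in GRCm39. It was present in 301 of 11958 promoters of tested protein-coding genes (2.52%). It was present in 15 of 257 promoters (5.84%) of genes at least 2.5-fold higher in Oligo, in 4 of 229 (1.75%) of genes at least 2.5-fold lower, and in 5 of the 20 promoters of cytosolic tRNA synthetases. The cAMP response element TGACGTCA was searched in the same way and counted whether or not it overlapped CARE. It was present in 3.22% of all promoters and in 2.72% of those of the genes higher in Oligo. Among the ISR effectors it was in 4 of 22 promoters and CARE in 3 of 22. Among the factors listed as stress-linked bZIP factors, *Nupr1* included, it was in 1 of 18 and CARE in 2 of 18. CARE was in 3 of 20 promoters of amino acid synthesis genes and in 2 of 19 of amino acid transporters. The cAMP response element was in none of these, and in none of the cytosolic tRNA synthetases. The matches are letters in a window and not measured binding. The following stretches show the element (capitals) with 10 bases on each side, read 5′ to 3′ so that it begins with TGATG, for genes with large and with small differences between Oligo and Sal003.
*Chac1*, log2 difference 3.49, chr2:119181520-119181547, minus strand: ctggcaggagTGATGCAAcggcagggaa
*Pycr1*, log2 difference 2.49, chr11:120534660-120534687, minus strand: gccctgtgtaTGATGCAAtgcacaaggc
*Vldlr*, log2 difference 1.97, chr19:27194210-27194237, minus strand: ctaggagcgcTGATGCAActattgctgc
*Ddit3*, log2 difference 1.83, chr10:127126351-127126378, minus strand: ggggcggggaTGATGCAAtgtttggcaa
*Ppp1r15b*, log2 difference 0.26, chr1:133058834-133058861, plus strand: taggtccggcTGATGCAActcgccgcgt
*Atf3*, log2 difference 0.16, chr1:190915623-190915650, plus strand: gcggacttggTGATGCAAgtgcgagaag

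The 6 stretches share the core and little else, and the differences of these genes ranged from 0.16 (*Atf3*) to 3.49 (*Chac1*). *Pycr1* was low, with means of 2.08 CPM in Oligo and 0.362 CPM in Sal003, and only 4 to 9 reads in the Sal003 libraries. In Oli_ISR against Sal003 it did not pass the test (adjusted *P* = 0.13). For *Chac1* the element began 159 bases before the start. The 250 bases before its start (GRCm39 chr2:119181439-119181688, plus strand), with the reverse complement of the core in capitals, are shown because *Chac1* had the largest difference of the genes shown: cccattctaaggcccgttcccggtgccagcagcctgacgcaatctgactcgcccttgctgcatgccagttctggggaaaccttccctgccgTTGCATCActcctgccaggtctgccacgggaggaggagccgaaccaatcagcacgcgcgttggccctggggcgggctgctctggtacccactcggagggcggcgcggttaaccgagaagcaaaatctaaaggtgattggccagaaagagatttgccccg

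The eIF2 pathway itself was split. *Ppp1r15a* (ENSMUSG00000040435, chr7:45172340-45175692), the inducible phosphatase subunit and a target of Sal003, had 184, 176, 193 and 184 CPM in Oligo and 31.8, 29.7, 27.2 and 37.7 CPM in Sal003. The groups were far apart (log2 difference 2.54 ± 0.09, adjusted *P* = 3.5e-17), whereas the difference of 0.15 between Sal003 and M2 did not pass (adjusted *P* = 0.17). In Oli_ISR its mean was 63.3 CPM, 1.00 above Sal003 on the log2 scale. The constitutive subunit *Ppp1r15b* differed by 0.26 ± 0.06, with 255 to 268 CPM in Oligo and 215 to 227 CPM in Sal003. Of the 22 genes of the pathway, 10 (45.5%) rose and 7 (31.8%) fell, with a median of 0.10. Over all genes tested the shares were 25.1% and 26.4%.

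Transcripts of 3 of the 4 eIF2α kinases were lower in Oligo. HRI (*Eif2ak1*) had 97.2, 95.8, 92.8 and 92.8 CPM in Oligo and 114, 119, 120 and 110 CPM in Sal003 (log2 difference −0.29 ± 0.04, adjusted *P* = 1.7e-06). *Eif2ak3*, which encodes the endoplasmic reticulum (ER) sensor PERK, was at 22.7 CPM in Oligo and 38.7 CPM in Sal003 (log2 difference −0.77 ± 0.08). *Eif2ak2*, which encodes the RNA sensor PKR and is itself an interferon-stimulated gene, differed by −0.54 ± 0.12. *Eif2ak4* (GCN2) did not pass the test, at 27.4 and 31.4 CPM (adjusted *P* = 0.064). The mitochondrial relay changed little at the transcript level. *Oma1* differed by −0.20 ± 0.06 and did not pass without mouse 1 (adjusted *P* = 0.088). *Dele1* differed by 0.15 ± 0.05, and it did not pass without mouse 4 (adjusted *P* = 0.065) or without a filter on low counts (adjusted *P* = 0.093). RNA levels give no measure of the activity or cleavage of these proteins. Among the eIF2 and eIF2B subunits *Eif2s2* (log2 difference 0.83) and *Eif2b3* (0.76) rose most.

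Genes of the ER stress response did not move together. Of 25 ER chaperones and sensors, 8 rose and 14 fell, with a median log2 difference of −0.18. *Calr*, the calcium-binding chaperone calreticulin, had 701, 723, 765 and 721 CPM in Oligo against 2230, 2221, 2334 and 2182 CPM in Sal003. The 2 groups were separated by more than 2.5-fold in each mouse (log2 difference −1.62 ± 0.06, adjusted *P* = 7.1e-17), and M2 was at 1935 CPM, closer to Sal003. *Sdf2l1*, a cochaperone, was lower by 1.54 ± 0.08. *Hspa5*, the chaperone BiP, differed little, with 904 to 1089 CPM in Oligo and 1103 to 1144 CPM in Sal003, a difference of −0.18 ± 0.07 (adjusted *P* = 0.027) that did not pass with upper-quartile normalization (adjusted *P* = 0.059) or without mouse 1, 2 or 5. Sequence of the opposite strand overlaps 44.2% of the *Hspa5* exons. *Ern1*, the sensor IRE1, went the other way, at 306 CPM in Oligo and 108 CPM in Sal003 (log2 difference 1.51 ± 0.08). *Derl3*, a factor of ER-associated degradation, passed as lower but reached at most 0.0474 CPM in Oligo and 0.824 CPM in Sal003, with no read in the Sal003 library of mouse 4.

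The genes that tunicamycin, an inhibitor of protein glycosylation that stresses the ER, raised over M2 by at least 2.5-fold were followed in the same comparison. Of these 1171 genes (8.56% of those tested), 691 (59.0%) were higher and 88 (7.51%) lower in Oligo than in Sal003, with a median log2 difference of 0.52. Of the 1917 genes (14.0% of those tested) that tunicamycin lowered, 104 (5.43%) were higher and 978 (51.0%) lower, with a median of −0.47. Over all genes tested the shares in Oligo against Sal003 were 25.1% higher and 26.4% lower. The difference of Oligo from Sal003 uses no tunicamycin or M2 values, but all 24 libraries shared 1 fit and 1 filter on low counts. A gene could thus be tested because it was high with tunicamycin or in M2. Of the 1171 raised genes, 47 had at most 3 reads in each of the 8 libraries compared, as had 27 of the 1917 lowered genes.

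**Figure D3:**
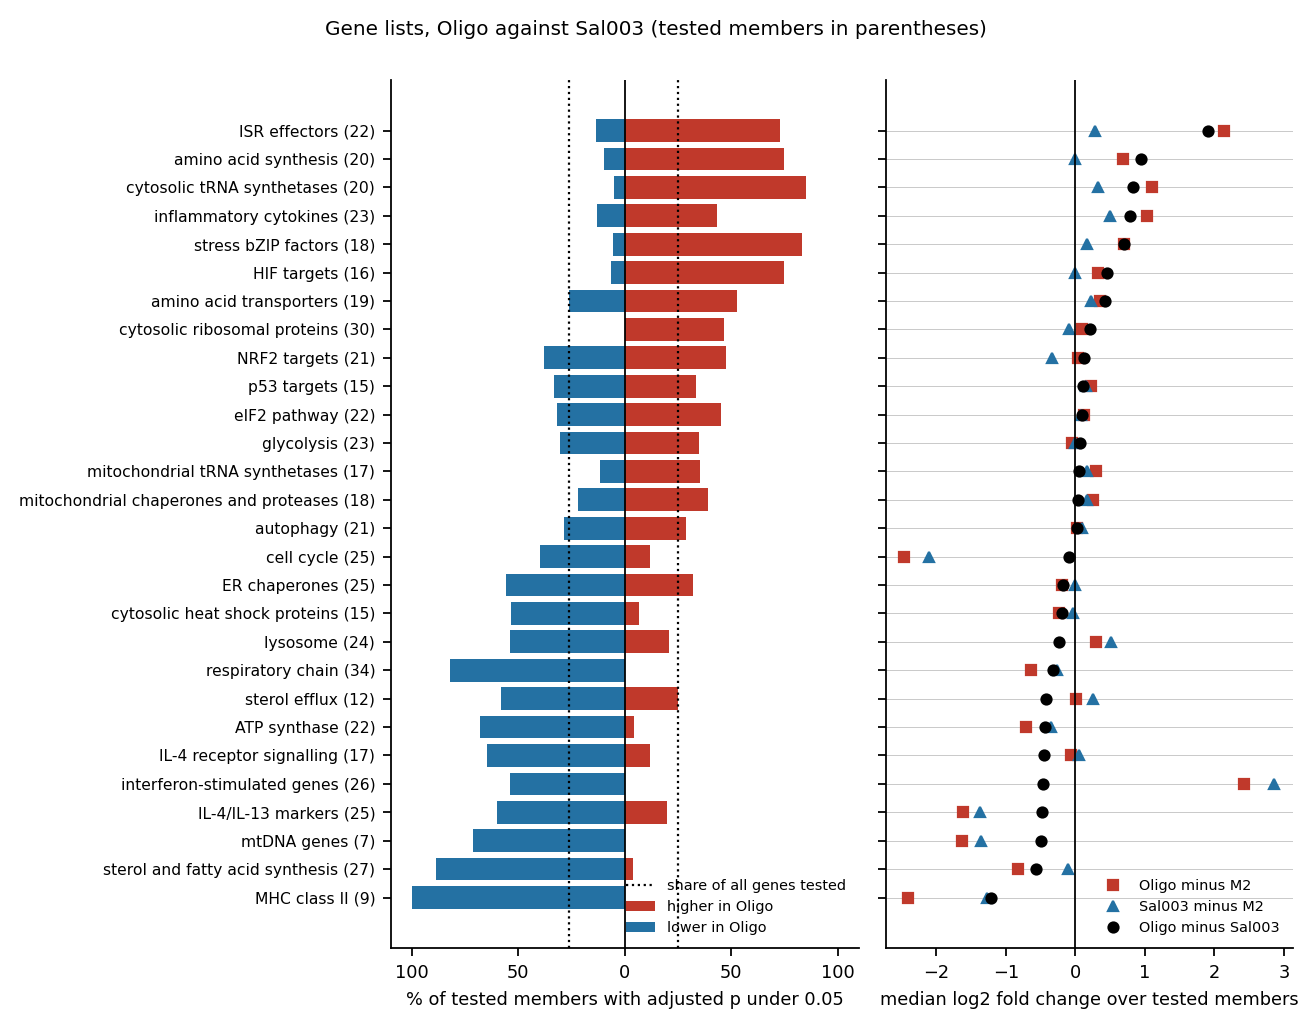
Left, share of the tested members of 28 gene lists that were higher (red, to the right) or lower (blue, to the left) in Oligo than in Sal003 at an adjusted *P* under 0.05, with dotted lines at the shares over all genes (25.1% and 26.4%). Right, median log2 fold change over the members for Oligo against Sal003 (black circles), Oligo against M2 (red squares) and Sal003 against M2 (blue triangles), the last 2 of which share the M2 libraries. ISR effectors (median 1.90) and MHC class II genes (median −1.22) are at the ends of the order.

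The response to IL-4 and IL-13 was described by listed markers and by all genes that the cytokines induced. Of 25 markers tested of 26 listed, 15 were lower and 5 higher in Oligo than in Sal003, with a median log2 difference of −0.48. Against M2 the median was −1.62 in Oligo and −1.37 in Sal003, and in Oli_ISR against Sal003 it was 0.00. Of the 737 genes (5.39% of those tested) that the cytokines raised over M0 by at least 2.5-fold, 283 (38.4%) were lower, 101 (13.7%) higher and 353 did not pass in Oligo against Sal003. Of the 832 (6.08%) they lowered, 251 (30.2%) were lower and 165 (19.8%) higher. Over all genes tested the shares were 26.4% lower and 25.1% higher. With at least 10 counts required in every library, 9 of the listed markers were lower. This rule left out markers low in any group of the series, such as *Retnla* and *Arg1*, which had almost no reads in M0.

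*Irf4* (ENSMUSG00000021356, chr13:30933209-30950959), a transcription factor of this response, had 24.7, 25.7, 26.4 and 24.6 CPM in Oligo. In Sal003 it had 88.5, 85.9, 110 and 71.7 CPM. No value overlapped (log2 difference −1.81 ± 0.10, adjusted *P* = 1.1e-13), and M2 was at 308 CPM and M0 at 13.5 CPM. *Egr2*, another early regulator, had 107, 107, 101 and 105 CPM in Oligo and 249, 245, 263 and 233 CPM in Sal003 (log2 difference −1.24 ± 0.06, adjusted *P* = 4.9e-14). Oli_ISR was close to Sal003 for *Egr2*, at 237 CPM, and the difference of −0.06 did not pass (adjusted *P* = 0.54).

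*Retnla*, which encodes the secreted protein RELMα, varied more between mice, with 57.3, 49.3, 58.4 and 33.4 CPM in Oligo and 150, 141, 259 and 68 CPM in Sal003. The groups did not overlap, both were lowest in mouse 5, and both were far below the 7754 CPM of M2 (log2 difference between them −1.64 ± 0.28, adjusted *P* = 2.4e-05). The chitinase-like *Chil3* had 1500, 1434, 1475 and 1061 CPM in Oligo and 2547, 2181, 2615 and 1403 CPM in Sal003. The Sal003 library of mouse 5 lay inside the range of Oligo, although Oligo was lower in each of the 4 mice (log2 difference −0.68 ± 0.19, adjusted *P* = 0.004), and 36.8% of its exon sequence is shared with other genes. *Ccl22*, a chemokine, was at 3.39 CPM in Oligo and 8.67 CPM in Sal003. *Ear2*, a ribonuclease of which 43.0% of the sequence is shared with other genes, had 3.79 to 5.08 CPM in Oligo and 35.1 to 70.1 CPM in Sal003 (log2 difference −3.55 ± 0.19).

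*Arg1*, which encodes arginase 1, did not pass the test. It had 179, 164, 140 and 110 CPM in Oligo and 154, 133, 132 and 94.9 CPM in Sal003, so that the groups overlapped and the order of mice was the same in both. The log2 difference was 0.21 ± 0.13 (adjusted *P* = 0.2), and with the mouse as a block it was 0.20 and passed (adjusted *P* = 0.017), since Oligo was higher in each mouse. Both groups were far below M2 (455 CPM), by 1.62 and 1.82 on the log2 scale, and Oli_ISR was at 295 CPM. *Mrc1*, the mannose receptor, was also near the threshold, at 685 CPM in Oligo and 790 CPM in Sal003 (log2 difference −0.21, adjusted *P* = 0.053, and 0.002 with the mouse as a block).

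A few of the listed markers were higher in Oligo. *Klf4*, a transcription factor that cooperates with STAT6, had 359, 335, 345 and 329 CPM in Oligo and 121, 112, 120 and 110 CPM in Sal003. The groups lay apart (log2 difference 1.56 ± 0.08, adjusted *P* = 4e-14) and on opposite sides of M2 (189 CPM), 0.86 above it in Oligo and 0.71 below it in Sal003 on the log2 scale. *Mgl2*, a lectin, had 118, 96.9, 125 and 92.9 CPM in Oligo and 55.7, 44.1, 64.7 and 44.1 CPM in Sal003, both below the 383 CPM of M2 (log2 difference between them 1.06 ± 0.12). A share of 20.7% of its sequence is found in other genes. *Ch25h*, which makes 25-hydroxycholesterol, had 78.3, 73.9, 101 and 66.7 CPM in Oligo and 2.04 to 4.17 CPM in Sal003 (log2 difference 4.66 ± 0.19, adjusted *P* = 3.6e-16). In Oli_ISR it was at 1.61 CPM, 0.98 below Sal003, and a gene of the opposite strand overlaps 50.3% of its exons. Although listed as a marker, *Ch25h* was raised little by the cytokines alone, at 1.99 CPM in M2, 0.83 above M0 on the log2 scale.

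Of 17 listed genes of IL-4 and IL-13 signaling, 2 rose and 11 fell, with a median log2 difference of −0.45. The list includes receptor chains and kinases as well as feedback inhibitors and genes that the cytokines induce. Its largest falls were in genes that the cytokines raised over M0, such as *Cish* and *Batf3*. *Il4ra*, the receptor chain shared by the 2 cytokines, was at 104 CPM in Oligo and 95.4 CPM in Sal003 (log2 difference 0.13, adjusted *P* = 0.052, and 0.013 with the mouse as a block). *Stat6* was at 292 and 360 CPM (log2 difference −0.30 ± 0.04, adjusted *P* = 1.4e-06). Of the feedback inhibitors, *Socs3* rose by 1.87 ± 0.15 while *Cish*, a STAT target, was at 13.6 CPM in Oligo and 31.3 CPM in Sal003.

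**Figure D4:**
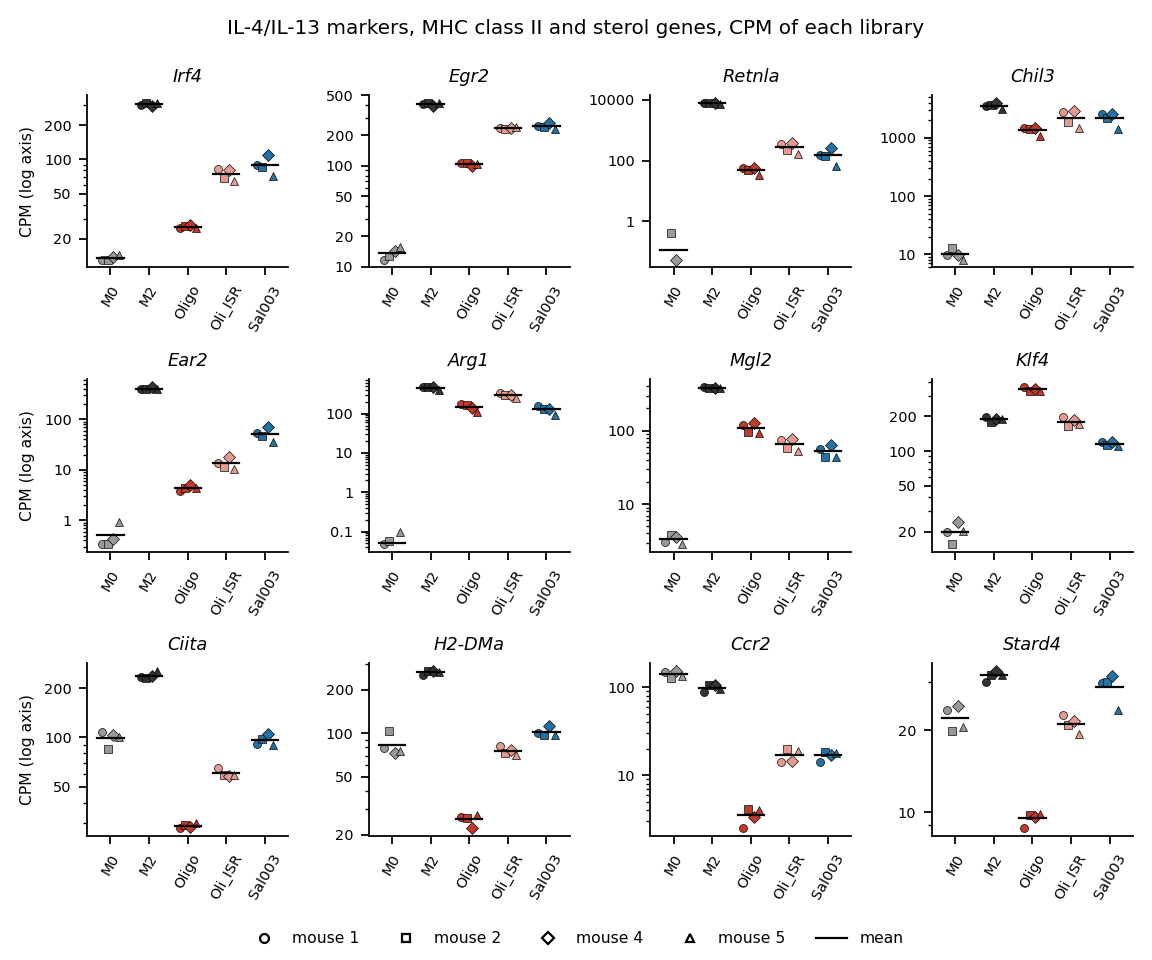
CPM (log axis) of 12 genes in each library of 5 groups, with marker shape giving the mouse and the horizontal line the mean, and libraries with no read not drawn. Oligo lies below Sal003 for *Irf4*, *Egr2*, *Retnla*, *Ear2*, *Ciita*, *H2-DMa*, *Ccr2* and *Stard4*, above it for *Mgl2* and *Klf4*, and overlaps it for *Arg1* and *Chil3*.

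MHC class II genes were the most uniform group. All 9 members tested of 10 listed fell, with a median log2 difference of −1.22, and for each of the 9 the Oligo libraries lay below the Sal003 libraries. The coactivator *Ciita*, which drives the class II genes, had 27.9, 29.2, 28.4 and 30.1 CPM in Oligo and 90.8, 98, 104 and 89.8 CPM in Sal003. The separation was about as wide in each mouse (log2 difference −1.73 ± 0.07, adjusted *P* = 8.9e-16), and M2 was at 238 CPM. *H2-DMa*, which helps load peptides, had 26.7, 26.2, 22.2 and 27.2 CPM in Oligo against 101, 96.8, 113 and 96.9 CPM in Sal003 (log2 difference −1.99 ± 0.09). Against M2 the median of the 9 genes was −2.40 in Oligo and −1.27 in Sal003.

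Markers of macrophages moved in the same direction. Of 10 markers, 9 were lower in Oligo, and only *Fcgr1* did not pass the test (adjusted *P* = 0.1). Their summed level was 9815 to 10560 CPM in Oligo and 15770 to 17370 CPM in Sal003, and 14290 to 16750 CPM in M2. *Csf1r*, the receptor for macrophage colony-stimulating factor, was at 2162 ± 48.9 CPM (mean ± SD, *n* = 4) in Oligo and 3465 ± 155 CPM in Sal003, and none of the 10 markers was near 0. In bulk RNA fewer cells of a type and less RNA per cell cannot be told apart, and the part of these markers in the results above was not tested. Markers of other cells were scarce. The summed neutrophil markers reached 4.77 CPM in Oligo and 8.89 CPM in Sal003, the dendritic cell markers 3.35 and 4.22 CPM. Of 7 neutrophil markers 3 passed as lower in Oligo and none as higher (median log2 difference −0.88), as did 3 of 5 dendritic cell markers (median −0.82), and none of the T and NK cell markers was high enough to be tested. Stromal markers ranged from 5.7 to 55.6 CPM in Oligo and from 8.03 to 49.7 CPM in Sal003, and none of the 5 passed the test. Of the B cell, erythroid and mast cell markers 1 each was tested. *Cd79b* (0.171 and 0.413 CPM) and *Epor* (0.0236 and 0.333 CPM) passed as lower in Oligo, and *Kit* (2.2 and 1.14 CPM) as higher.

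Interferon-stimulated genes were above M2 in both groups, while M2 itself lay below M0. Of 26 such genes, 14 were lower and none higher in Oligo than in Sal003, and the count of lower genes fell to 9 without mouse 1 or without mouse 5. Their summed level was 4161, 4358, 3234 and 4453 CPM in Oligo and 6031, 6918, 3923 and 8962 CPM in Sal003. It was 943 to 1079 CPM in M2 and 4520 to 5420 CPM in M0, so that every Oligo library lay below M0. The Sal003 library of mouse 4 lay within the range of Oligo, and that of mouse 5 stood well above the other 3. The median log2 difference was −0.35 in mouse 1, −0.47 in mouse 2, −0.11 in mouse 4 and −0.85 in mouse 5. *Irf7*, a factor that amplifies interferon production, had 354, 358, 270 and 365 CPM in Oligo and 720, 850, 416 and 1186 CPM in Sal003 (log2 difference −1.24 ± 0.26, adjusted *P* = 0.00025). Against M2 the median of the 26 genes was 2.43 in Oligo and 2.86 in Sal003.

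**Figure D5:**
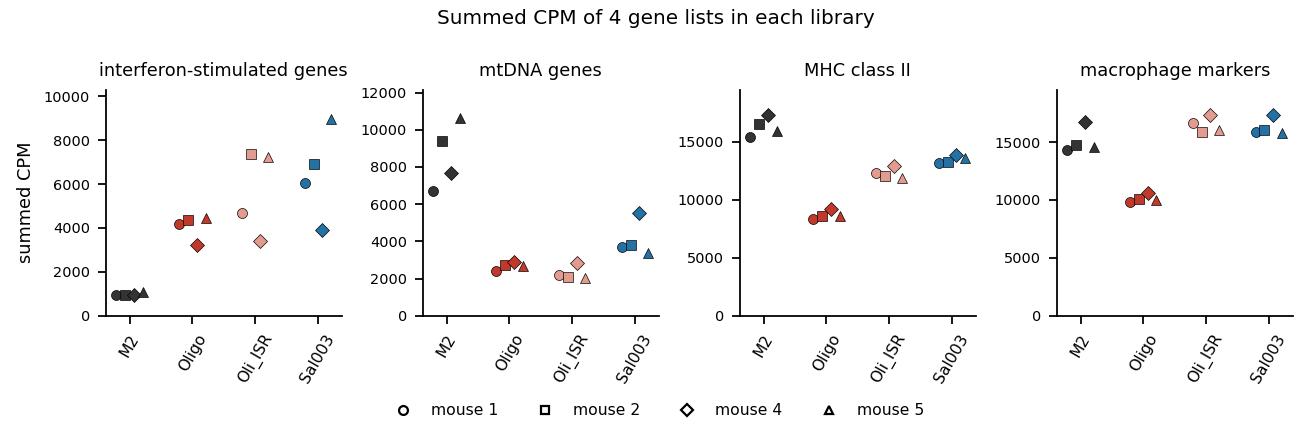
Summed CPM (linear axis from 0) of the interferon-stimulated genes, the genes of mitochondrial DNA (5 of 13 without reads), the MHC class II genes and the macrophage markers in each library of 4 groups, with marker shape giving the mouse. Oligo and Sal003 overlap for the interferon-stimulated genes, through the Sal003 library of mouse 4, and do not overlap for the other 3 lists.

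Among inflammatory cytokines 10 of 23 rose, 6 of them by at least 2.5-fold, and 3 fell. *Csf1*, the growth factor of macrophages, had 97.4, 86.3, 90.8 and 83.2 CPM in Oligo and 30.2, 22.8, 20.5 and 19.1 CPM in Sal003 (log2 difference 1.95 ± 0.14, adjusted *P* = 2.3e-11). The neutrophil chemokine *Cxcl2* was at 9.36 ± 2.36 CPM in Oligo and 2.27 ± 1.69 CPM in Sal003. Both *Csf1* and *Cxcl2* separated the groups. *Il10* (0.48 and 2.58 CPM) and the T cell chemokine *Ccl5* (6.74 and 24.5 CPM) fell.

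Transcripts of the oxidative phosphorylation system were lower in Oligo than in Sal003. For mitochondrial DNA, 5 of 13 coding genes had no read in any of the 24 libraries and 7 were tested, of which 5 were lower and none higher. This count fell to 3 without mouse 2 or without mouse 4. *mt-Nd1*, a subunit of complex I, had 180, 213, 217 and 210 CPM in Oligo and 849, 885, 1258 and 794 CPM in Sal003. All Oligo libraries were below all Sal003 libraries (log2 difference −2.21 ± 0.16, adjusted *P* = 3.9e-11), and Sal003 was near M2 (1018 CPM). The summed level of the 13 genes, however, was 2390 to 2888 CPM in Oligo, 3356 to 5532 CPM in Sal003 and 6711 to 10620 CPM in M2. The 5 genes without reads add nothing to this sum, and why they had none was not tested. *mt-Co1*, a subunit of complex IV chosen after its values were seen, did not pass, at 1532 and 1686 CPM (adjusted *P* = 0.5).

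Of the nuclear genes of the respiratory chain, 28 of 34 fell and none rose, with a median log2 difference of −0.32. Of 22 genes of the ATP synthase and its assembly, the target of oligomycin, 15 fell and *Tmem70*, an assembly factor, rose, although *Tmem70* did not pass with DESeq2, without a filter on low counts or without any 1 mouse. *Atp5mc3*, a subunit of the ring to which oligomycin binds, had 83.1, 81.7, 92.7 and 77.5 CPM in Oligo and 146, 147, 152 and 140 CPM in Sal003 (log2 difference −0.80 ± 0.10, adjusted *P* = 2.2e-07). *Sdhd*, a subunit of complex II, was at 83.3 and 151 CPM. The respective medians against M2 were −0.71 in Oligo and −0.35 in Sal003 for the ATP synthase and −0.64 and −0.26 for the respiratory chain. Of 18 mitochondrial chaperones and proteases, 7 (38.9%) were higher and 4 (22.2%) lower, against 25.1% and 26.4% of all genes tested. Those that rose most were *Hspa9*, the matrix chaperone mortalin, with 1003 to 1043 CPM in Oligo and 330 to 372 CPM in Sal003 (log2 difference 1.54 ± 0.05), and the protease *Lonp1* (1.44 ± 0.05).

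Sterol and fatty acid synthesis was lower in Oligo, with 24 of 27 genes tested falling, 4 of them by at least 2.5-fold, and 1 rising. *Stard4*, a carrier of cholesterol, had 8.76, 9.78, 9.58 and 9.89 CPM in Oligo and 29.7, 29.9, 31.6 and 23.7 CPM in Sal003. The groups did not overlap (log2 difference −1.59 ± 0.08, adjusted *P* = 6.8e-14), and M2 was at 31.7 CPM. The desaturase *Fads2* also fell (−1.89 ± 0.26), whereas *Sc5d*, a desaturase of the sterol pathway, rose by 0.44. Against M2 the median of the list was −0.82 in Oligo and −0.11 in Sal003. Of 12 genes of sterol efflux 3 rose and 7 fell. Of 16 targets of hypoxia-inducible factor, 12 rose and *Bnip3l* fell, which did not pass without mouse 1 or 4 (adjusted *P* = 0.12 and 0.079). Of 23 glycolysis genes 8 (34.8%) rose and 7 (30.4%) fell, against 25.1% and 26.4% of all genes tested. Among the glycolysis genes *Slc2a1*, the glucose carrier GLUT1, was at 112 CPM in Oligo and 56.6 CPM in Sal003.

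Of the autophagy genes 6 rose and 6 fell of 21 (28.6% each), near the shares over all genes tested (25.1% higher and 26.4% lower). Among them *Sqstm1*, the autophagy receptor p62, had the widest difference, with 2390, 2480, 2523 and 2547 CPM in Oligo and 733, 694, 671 and 773 CPM in Sal003. The groups lay apart (log2 difference 1.79 ± 0.06, adjusted *P* = 6.5e-18). Of 24 lysosomal genes 13 fell and 5 rose, and the rises became 3, 2 and 1 without mouse 1, 4 and 5. Of NRF2 targets 10 rose and 8 fell of 21. Targets of p53 rose and fell in equal number, 5 each of 15 (33.3%), also not far from the shares over all genes. *Sesn1*, a regulator of nutrient signaling, was at 33.5 CPM in Oligo and 112 CPM in Sal003. Cytosolic heat shock proteins were mostly lower, with 8 of 15 falling and 1 rising. Of 30 cytosolic ribosomal proteins 14 rose and none fell, and this count was 5, 9 and 8 without mouse 1, 4 and 5 and 24 when only the 2 groups were fitted. Genes of the cell cycle had a median log2 difference from M2 of −2.46 in Oligo and −2.11 in Sal003 over 25 genes, and between the groups 3 were higher and 10 lower. *Ccnd1*, the cyclin of G1 phase, was lower in Oligo by 1.85 ± 0.11.

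The largest rises outside these lists that met the rule for named genes were in genes of varied function. *Ffar2*, a receptor for short-chain fatty acids, had 57.4, 57, 70.9 and 55.9 CPM in Oligo and 4.57, 3.21, 2.6 and 4.53 CPM in Sal003. *F5*, coagulation factor V, had 79.3, 83.8, 108 and 72.2 CPM in Oligo and 7.11, 6.65, 5.95 and 5.46 CPM in Sal003. For both genes the groups were separated by about an order of magnitude (log2 differences 4.00 ± 0.12 and 3.77 ± 0.13), and their means in Oli_ISR were 3.38 and 4.00 CPM. *Ffar2* in Oli_ISR did not pass against Sal003 (adjusted *P* = 0.54), whereas *F5* was lower there by 0.66 on the log2 scale (adjusted *P* = 0.0087). *Sh2d6*, *Tox2*, *Hid1* and *Aqp9*, a glycerol channel, also rose, by 3.32 to 3.91 on the log2 scale.

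The largest falls were also spread over functions. *Angptl4*, an inhibitor of lipoprotein lipase, had 2.04, 1.98, 2.72 and 2.5 CPM in Oligo and 19.6, 20.2, 19.1 and 20.1 CPM in Sal003 (log2 difference −3.10 ± 0.16). *Ccr2*, the receptor that guides monocytes, had 2.51, 4.09, 3.4 and 4 CPM in Oligo and 14.1, 18.6, 17 and 18.1 CPM in Sal003 (log2 difference −2.27 ± 0.14). No value overlapped for either gene, and *Ccr2* in Oli_ISR equaled Sal003 at 16.9 CPM. *Slco2b1*, *Kctd12b* and *Apol7c* fell by 2.51 to 2.72 on the log2 scale, with 64.5% of the *Apol7c* sequence shared with other genes. For *Ms4a4c* and *Ifit1bl1*, the Sal003 values ranged from 10.5 to 119 CPM and from 2.04 to 15.1 CPM with mouse 5 highest, and for *Ms4a4c* the Sal003 library of mouse 4 lay inside the range of Oligo.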

How the data were processed

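RNA-seq reads were trimmed, aligned and counted by the authors, who deposited gene-wise read counts (Cutadapt 1.8, STAR 2.7, HTSeq 0.9.1, GRCm39). The 5 lines of totals were left out. A deposited table of TPM was not used, since its header has 28 names over 25 cells. Library sizes were scaled by TMM, and the counts of all 24 libraries were fitted in edgeR 4.0.16 (R 4.3.3) with 1 coefficient per group, by its quasi-likelihood test with Benjamini-Hochberg adjustment over 13679 genes kept by filterByExpr. Genes were called at an adjusted *P* under 0.05, for some counts also at 2.5-fold. The libraries held 16238727 to 26725278 reads on genes (median 18999998). Same-numbered libraries came from the same mouse, and their deviations from the group means correlated (median *r* = 0.28 in 4 Oligo and Sal003 pairs, against −0.06 in 12 pairs of different mice). The stated fit has no mouse term, and a fit with the mouse as a replicate block was an alternative.

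Genes named were 30 key genes, the 10 largest rises and falls (the same direction in 4 mice, mean of at least 50 counts) and up to 3 rises and 3 falls per list. Members, lists and key genes were chosen with earlier results of these data known. Shared sequence was computed from words of 31 bases. The step was tested on simulated data. A few items that met these rules are not reported here.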

Additional observations from a re-analysis of the deposited data

Results flagged for a closer look

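In 22 of 336 groups of 4 libraries, over 168 named genes, 1 library lay apart from the other 3 by Dixon's test, where chance gives about 1 in 20. The test sets the gap against the range of the 4 values, so that small gaps can count. An example is *Atf4* in Oligo, at 699 CPM against 706 CPM. The library that lay apart was that of mouse 4 in 10 groups, mouse 5 in 7, mouse 2 in 3 and mouse 1 in 2. In Oligo, mouse 4 was lowest for *Atf4* (699 CPM) and *Irf7* (270 CPM), and highest for *Ffar2* (70.9 CPM), *Slc7a1* (155 CPM), *Slc36a1* (94.1 CPM), *Ctsl* (3100 CPM) and *Map1lc3b* (119 CPM). Mouse 5 was lowest in Oligo for *Chil3* (1060 CPM) and *Ppp1ca* (308 CPM), and highest for *Kctd12b* (11.1 CPM), *Dnaja3* (168 CPM), *Gclm* (340 CPM) and *Il10* (0.75 CPM). Mouse 1 was lowest in Oligo for *Ccl5* (5.73 CPM), and mouse 2 was highest for *Cct2* (230 CPM). In Sal003, mouse 4 was lowest for *Hid1* (0.566 CPM) and *Slc7a1* (24.5 CPM) and highest for *Atg9a* (34.2 CPM). Mouse 2 was lowest for *Dele1* (27.5 CPM) and highest for *Egln3* (0.733 CPM), mouse 5 lowest for *Nars2* (5.97 CPM) and mouse 1 lowest for *mt-Nd6* (5.09 CPM).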

How the results depend on the processing

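Over the named genes, 1759 of 1819 values under the alternatives kept their direction and their side of the threshold, 47 no longer passed, 13 newly passed and 0 changed direction. With at least 10 counts in every library, which tests 11017 genes, 124 genes were higher and 105 lower by 2.5-fold in Oligo than in Sal003, 13 and 5 in Oli_ISR than in Sal003, 370 and 541 in Oligo than in M2, and 197 and 276 in Sal003 than in M2. At 2-fold, 545 were higher and 544 lower in Oligo than in Sal003. With only the groups compared, 11 genes were lower by 2.5-fold in Oli_ISR than in Sal003, and the cause was not tested. Leaving out 1 mouse gave 709 to 1338 genes higher and 604 to 1140 lower in Oli_ISR than in Sal003 at the adjusted *P* alone. With the mouse as a replicate block, 316 genes were higher and 285 lower by 2.5-fold in Oligo than in Sal003. The block changed the call of *Arg1*, *Mrc1* and *Il4ra* and of no other named gene. A fit of the compared groups alone with the block, chosen after seeing the data, gave 266 and 204. *Acod1* and *Atp5if1* passed in the stated fit but not with upper-quartile normalization. Small differences near the threshold and genes at few reads limit the list counts most.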
